A study of Thermothelomyces thermophilus ATCC 42464 with 4 samples.

Results

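A set of 41 windows of 1 kb in the genome of the thermophilic fungus Myceliophthora thermophila carried most of their methylated cytosines on a single DNA strand. They were chosen from the lists of methylated cytosines of the 2 wild-type (WT) libraries. The plus share of a window was defined as the cytosines listed on the plus strand over all cytosines listed in it, and a window had to hold at least 30 listed cytosines in both WT lists. A window was taken when its plus share was at least 70% in both WT lists or at most 30% in both. Of 33326 windows with at least 1 listed cytosine, 10246 met the minimum of 30, and the 41 strand-skewed windows comprised 17 with the plus strand crowded and 24 with the minus strand crowded. The WT plus shares made the choice, so they are described here without a test.

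Cytosine methylation can sit on both strands of the same short sequence. In the CG and CHG contexts, where H is any base but G, a cytosine has a partner on the opposite strand, whereas a CHH cytosine has none, so that its methylation is set on each strand separately. In the related fungus Neurospora crassa, cytosines of all contexts are methylated by the DNA methyltransferase DIM-2 in A:T-rich relics of transposons, in blocks that are bounded by unmethylated, gene-bearing DNA. LaeA is a putative methyltransferase that is known in filamentous fungi as a global regulator of secondary metabolism.

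Mycelium of strain WT and of strain ΔlaeA was sampled after 24 h on glucose and subjected to whole-genome bisulfite sequencing, in which unmethylated cytosine is read as T and methylated cytosine as C. Each strain had 2 libraries, named WT replicates 1 and 2 and ΔlaeA replicates 1 and 2, and nothing in the labels says that they came from separate cultures, so the p-values measure the spread between these libraries only. The sample titles call the mutant a deletion strain, its genotype label calls it a knockdown, and the study's methods describe replacement of the coding region of laeA by a marker gene. The lists held 1899567 to 2044100 cytosines per library at a median depth of 47 to 59 reads, and 50.02% to 50.06% of each list was on the plus strand. ΔlaeA replicate 2 was the shallowest library.

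Across the 10246 windows, the median plus share was 50% in every library. The 41 strand-skewed windows held fewer listed cytosines than the rest, with 30 to 227 and a median of 57 in WT replicate 1, against a median of 195 over all 10246. Just inside the limits were chr1:10822001-10823000, with plus shares of 26.1% and 30% in WT replicates 1 and 2, chr3:4080001-4081000, with 70% and 72.7%, and chr4:3457001-3458000, with 25% and 30%. Just outside were the windows starting at chr1:10272001, with 27.1% and 30.2%, chr7:356001, with 30.5% and 28.6%, and chr1:5541001, with 72.0% and 69.3%. A window could pass in 1 list and fail in the other: 78 windows passed the limits in WT replicate 1 and 84 in WT replicate 2.

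The ΔlaeA libraries, which the choice did not use, showed the same strand skew in most of these windows. In 38 of the 41 windows the plus share lay on the same side of 50% in both ΔlaeA libraries. The share of all windows that kept their WT side was not counted. Over all 10246 windows, the plus shares of a WT and a ΔlaeA library had a Pearson correlation of 0.787 to 0.853. Agreement between the strains was therefore not particular to the skewed windows. The shares were past 70% or 30% on the same side in both ΔlaeA libraries in 20 windows, 10 of them plus and 10 minus. Over all 10246 windows, 0.156% reached at least 70% in both ΔlaeA lists and 0.185% fell to at most 30% in both. In ΔlaeA replicate 1 alone 27 of the 41 windows were past the limits, and in ΔlaeA replicate 2 alone 24. The share of the crowded strand had a median of 75% and 75.4% in the WT libraries, which chose the windows, and of 73.5% and 70.7% in the ΔlaeA libraries. In ΔlaeA replicate 1 all 41 windows stayed on their side of 50%. The 3 windows that crossed did so in ΔlaeA replicate 2, and were chr1:8766001-8767000 at 41.2% of 34 listed cytosines, chr4:3457001-3458000 at 55.6% of 36 and chr6:1033001-1034000 with 1 listed cytosine. Their median depth in that library was 61.5, 26 and 80 reads.

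**Figure D1:**
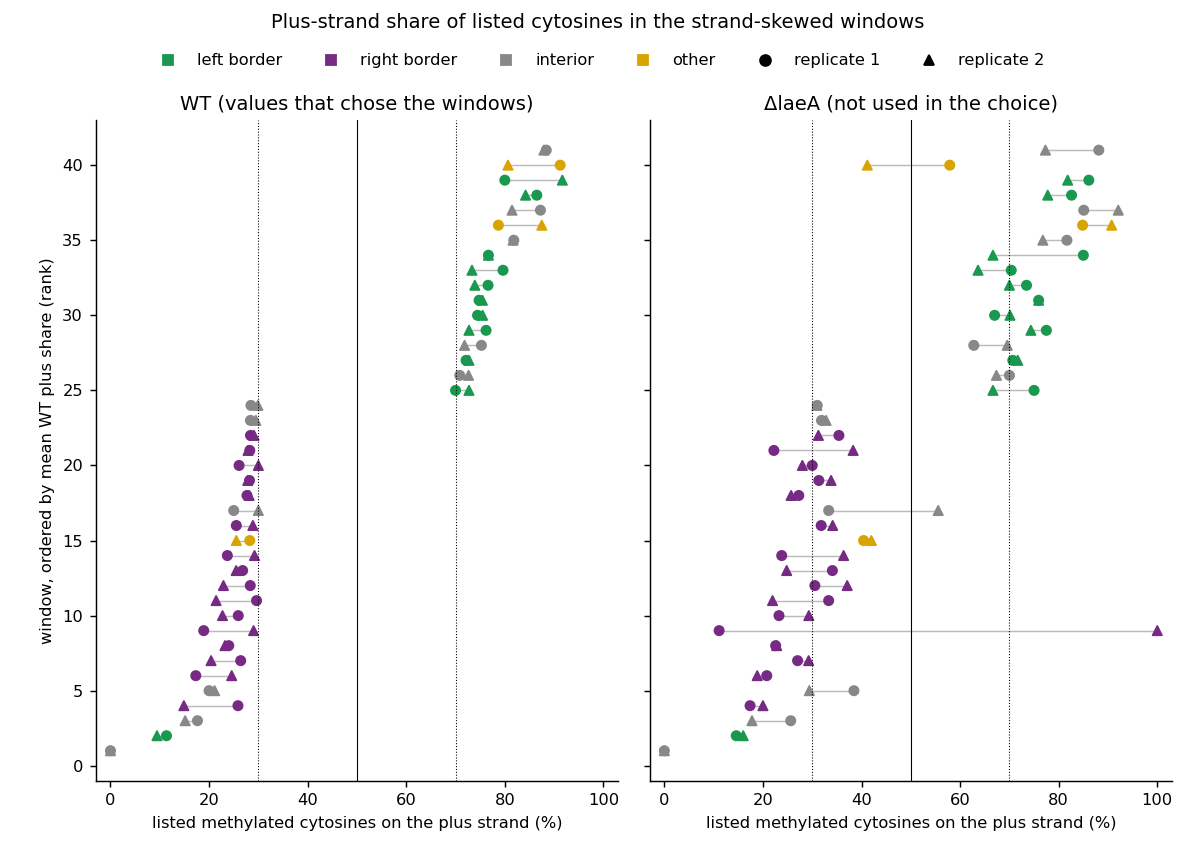
Plus share (x axis, percent of listed methylated cytosines on the plus strand) of each of the 41 strand-skewed windows (y axis, rank by mean WT plus share) in WT (left panel) and ΔlaeA (right panel), circles for replicate 1 and triangles for replicate 2, colours for the place of the window in its methylated block and dotted lines at 30% and 70%. In ΔlaeA 38 of the 41 windows stay on their side of 50%, and the point at 100% among the minus windows is a window with 1 listed cytosine in ΔlaeA replicate 2.

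The direction of the skew followed the side of the methylated block on which the window lay. A window was called a left border when the 2 windows on its low-coordinate side held fewer than 10 listed cytosines in both WT lists and the next window on the other side held at least 30, a right border in the mirror case, and interior when both neighbours held at least 30. These classes were drawn up after the skewed windows had been seen and are given as a description. Of the 11 left-border windows, 10 had the plus strand crowded. All 16 right-border windows had the minus strand crowded. The 11 interior windows were divided into 5 plus and 6 minus, and the other 3 windows into 2 plus and 1 minus. Border windows made up 27 of the 41 strand-skewed windows, but only 605 of all 10246 windows. A plus share from few listed cytosines passes the limits more easily, and border and other windows of like number were not compared. The exception among the left borders was chr7:607001-608000, in which the minus strand was crowded.

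The same orientation was seen at the borders of methylated blocks in general. The medians below include the 11 left and 16 right borders that were chosen by their WT shares. The 307 left-border windows had a median plus share of 56.7% and 56.8% in WT and of 56.3% and 56.0% in ΔlaeA. The 298 right-border windows had a median of 42.9% and 43.1% in WT and of 43.5% and 42.9% in ΔlaeA. Without the strand-skewed windows, 214 of 296 left borders lay above 50% in both ΔlaeA libraries and 216 of 282 right borders lay below it in both. The interior windows stood at a median of 50% in all 4 libraries. Of them, 41.0% lay above 50% in both ΔlaeA libraries and 40.0% lay below it in both.

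At the resolution of single cytosines, the skew was a feature of the outermost part of a block. Block edges were set at the first position, coming from the empty side, with at least 10 listed cytosines within 200 bp, for blocks of at least 5 consecutive windows, which gave 267 left and 268 right edges. At each edge the strand whose 5′ to 3′ direction leads into the block is here called the inward-running strand, which is the plus strand at left edges and the minus strand at right edges. In the first 100 bp it held 56.5% to 59.6% of the listed cytosines over the 4 libraries and both kinds of edge. From 100 to 200 bp it held 64.3% to 66.3%, the highest share of any 100-bp bin in the first 1000 bp, and from 600 to 700 bp it held 50.7% to 51.5%. Over the first 300 bp the inward-running strand was above 50% in both ΔlaeA libraries at 383 of all 535 edges and below it in both at 53, and without edges in strand-skewed windows at 366 of 515. The 2 strands also differed in level and depth there. From 100 to 200 bp, the methylation level of listed cytosines, which is the share of their reads that were methylated, was 14.8% to 15.9% on the inward-running strand and 11.5% to 12.3% on the opposite strand, while the listed cytosines had 44.2 to 55.1 reads on the former and 52.8 to 65.8 on the latter.

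**Figure D2:**
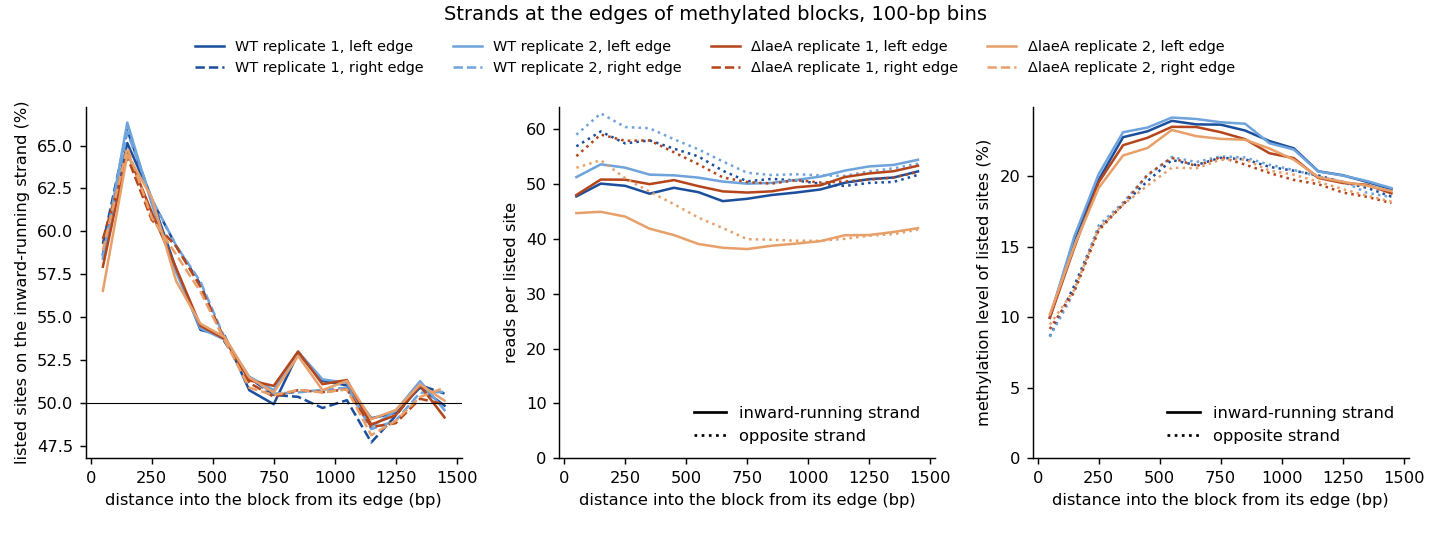
Strand share of listed cytosines (left panel, solid lines for left edges and dashed lines for right edges), reads per listed cytosine (middle) and methylation level (right) in 100-bp bins against the distance into the methylated block from its edge in bp, for the 4 libraries, with the means of left and right edges in the last 2 panels. The share of the inward-running strand is highest at 100 to 200 bp, at 64.3% to 66.3%, and falls to 50.7% to 51.5% at 600 to 700 bp.

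In the most skewed border windows most of the listed cytosines of the crowded strand formed a short cluster on the block side of the window. In chr4:4264001-4265000, a left border, the plus share was 80% and 91.7% in WT and 86.1% and 81.8% in ΔlaeA, from 33 to 36 listed cytosines per library. The middle 50% of its listed plus-strand cytosines in WT replicate 1 lay between positions 909.5 and 966.3 of the 1000 bp, next to the block. In chr5:88001-89000, another left border, the plus share was 86.5% and 84.2% in WT and 82.6% and 77.8% in ΔlaeA. Its 95% Wilson interval in ΔlaeA replicate 2, which had 27 listed cytosines there, ran from 59.2% to 89.4%, so that at this number of sites the 4 shares were not distinguishable by counting error. In the right border chr5:132001-133000 the minus strand was crowded, with plus shares of 25.9% and 14.9% in WT and of 17.4% and 20% in ΔlaeA. The middle 50% of its listed minus-strand cytosines in WT replicate 1 lay at positions 43.5 to 141.5.

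The left border with the opposite orientation, chr7:607001-608000, stood apart in depth. Its plus share was 11.4% and 9.43% in WT and 14.6% and 16% in ΔlaeA, on the minus side in every library. Its listed cytosines had a median of 1571 reads in WT replicate 1, which was 28.6 times the median of that library. On the crowded minus strand the median was 1488, 1124, 1086 and 1099 reads in WT replicates 1 and 2 and ΔlaeA replicates 1 and 2, and on the plus strand it was 3366, 3235, 3372 and 2765. The next window held 54 listed cytosines in WT replicate 1 at a median of 40 reads on the plus strand and 50 on the minus strand. The part of this depth in its strand share was not tested.

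The interior skewed windows included stretches in which long series of listed cytosines lay on the same strand. The 2 runs of adjacent skewed windows were both interior, chr1:3591001-3593000 with the plus strand crowded and chr2:5408001-5410000 with the minus strand crowded. In chr1:3591001-3592000 the plus share was 88.4% and 87.9% in WT and 88.1% and 77.3% in ΔlaeA, from 119 to 207 listed cytosines. In the neighbouring window chr1:3592001-3593000 it was 75.3% and 71.8% in WT and 62.8% and 69.6% in ΔlaeA, where neither library passed 70%. A further window of this stretch, chr1:3600001-3601000, had plus shares of 87.2% and 81.5% in WT and of 85.1% and 92.1% in ΔlaeA. All 3 windows were skewed to the plus strand in all 4 libraries, while the 7 windows between the run and chr1:3600001-3601000 lay between 44.4% and 69.4%. Listed cytosines formed long runs on the same strand, the longest holding 65, 64 and 91 consecutive plus cytosines in WT replicate 1 in these 3 windows. The plus strand was also the shallow strand here: in WT replicate 1 its listed cytosines had a median of 8, 12 and 13 reads in the 3 windows, against 32, 46 and 46 on the minus strand.

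**Figure D3:**
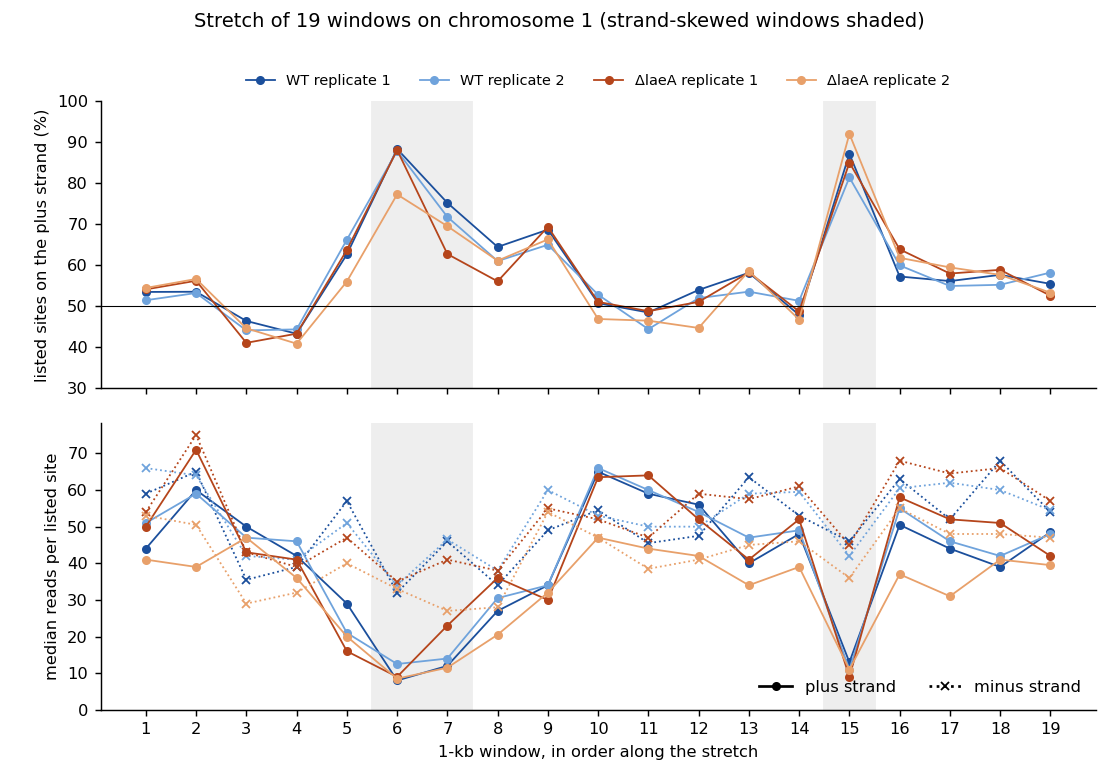
Plus share of listed cytosines (upper panel, percent) and median reads per listed cytosine on each strand (lower panel, circles and solid lines for plus, crosses and dotted lines for minus) in 19 consecutive 1-kb windows on chromosome 1, in the 4 libraries, with the 3 strand-skewed windows shaded. The highest plus share of each library is in a shaded window, and the plus-strand depth in the shaded windows has medians of 8 to 23 reads, below the minus strand in every library. In ΔlaeA replicate 1 the shaded window chr1:3592001-3593000 is at 62.8%, below the unshaded chr1:3594001-3595000 at 69.4%.

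The minus run on chromosome 2 was less deep than its surroundings too. In chr2:5408001-5409000 the plus share was 17.6% and 15.2% in WT and 25.6% and 17.8% in ΔlaeA, from 34 to 66 listed cytosines. In chr2:5409001-5410000 it was 20% and 21.1% in WT and 38.5% and 29.4% in ΔlaeA, so that only ΔlaeA replicate 2 stayed under 30% there. The crowded minus strand had a median of 14 and 18.5 reads in the 2 windows in WT replicate 1, and the plus strand had 34.5 and 31.

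The most extreme window was chr6:1478001-1479000, which held no plus-strand cytosine in any of the 4 lists. It held 36, 38, 37 and 28 listed cytosines in WT replicates 1 and 2 and ΔlaeA replicates 1 and 2, all on the minus strand, with a median of 28 to 34 reads. A count of 0 allows a plus share of up to 8.33%, 7.89%, 8.11% and 10.7% in these libraries. The window chr6:1480001-1481000, which lay outside the set because WT replicate 2 listed only 22 cytosines there, also had no plus-strand cytosine among its 22 to 32. Depth on the plus strand at positions that were not listed cannot be read from these files. Another interior window, chr6:1533001-1534000, and the nearby chr6:1531001-1532000, both named after their values had been seen, had the plus strand crowded in all 4 libraries, at 76.8% to 90.7%.

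The skew was strongest among CHH cytosines, the context without a partner on the other strand. In WT replicate 1, whose list helped to choose the windows, CHH cytosines made up 82.1% of the listed cytosines of the skewed windows. Over all 10246 windows they made up 78.3%, so most listed cytosines of any window were CHH. In the plus-crowded windows of WT replicate 1, 81.95% of the CHH cytosines lay on the plus strand, against 66.4% of the CG and 68.4% of the CHG cytosines. In the minus-crowded windows the plus strand held 22.3% of the CHH, 37.1% of the CG and 39.4% of the CHG cytosines. In the ΔlaeA libraries CHH cytosines were again the most skewed, with 79.4% and 79.1% of CHH against 57.3% and 57.7% of CG cytosines on the plus strand in the plus-crowded windows, while the order of CG and CHG differed between libraries. The skewed windows were also poor in listed CG cytosines, which made up 7.44% of their listed cytosines in WT replicate 1, against 12.2% over all 10246 windows. Of their listed CG cytosines, 40% in WT replicate 1 had the partner cytosine on the opposite strand listed too, against 52.1% over all 10246 windows. In ΔlaeA replicates 1 and 2 it was 41.0% against 51.8% and 37.9% against 49.1%. A window chosen for listing most cytosines on a single strand has room for fewer such pairs, so a lower share follows in part from the choice. The lower share of CG cytosines and the stronger skew of CHH cytosines may also follow in part from it, which was not tested. Contexts were not counted for border windows as a group. The lists repeated each other only in part at single cytosines: in the plus-crowded windows 571 of the 1706 crowded-strand cytosines listed in any library were listed in all 4, or 33.5%, and 37.9% on the other strand. In the minus-crowded windows the shares were 36.8% on the crowded and 34.7% on the other strand.

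In nearly all skewed windows the crowded strand was the shallower strand. Among windows with at least 5 listed cytosines on each strand, the crowded strand had the lower median depth in 38 of 40 in WT replicate 1, 35 of 39 in WT replicate 2, 34 of 37 in ΔlaeA replicate 1 and 36 of 39 in ΔlaeA replicate 2. The median ratio of crowded to other strand was 0.596, 0.632, 0.600 and 0.612. The largest ratio was 4.71, in chr6:1531001-1532000 in WT replicate 1, and the smallest 0.200, in ΔlaeA replicate 1. The same relation ran through all 10246 windows: in WT replicate 1 the median ratio of plus to minus depth was 1.45 where the plus share was under 30%, 1.28 from 40% to 45%, 1.01 from 45% to 55%, 0.803 from 55% to 60% and 0.627 from 70% on. Depth is counted at listed cytosines only, and its part in the strand share was not tested.

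**Figure D4:**
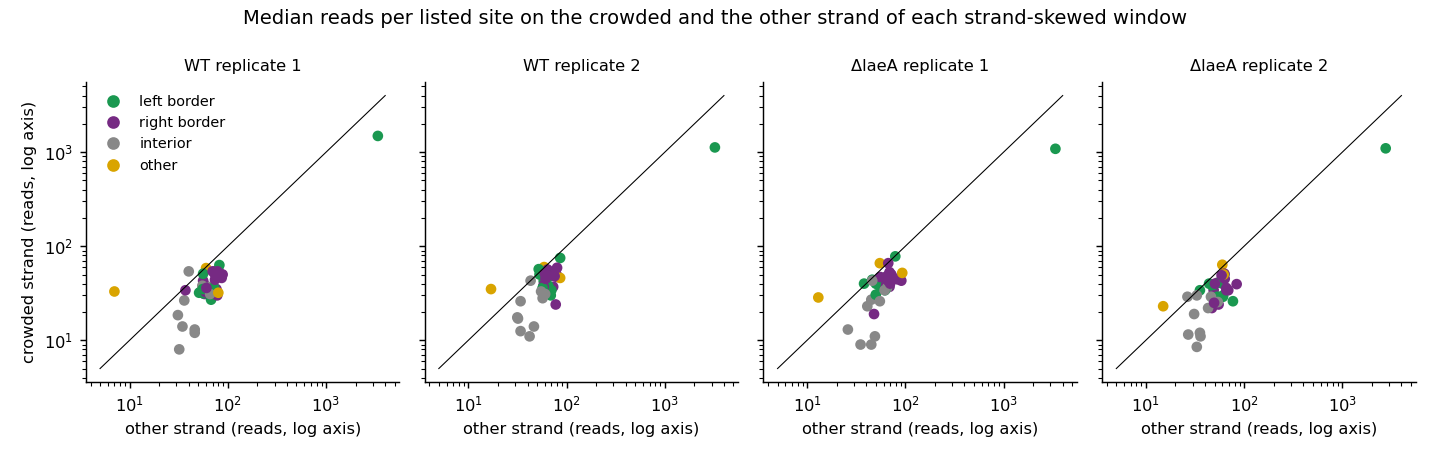
Median reads per listed cytosine on the crowded strand (y axis, log scale) against the other strand (x axis, log scale) for each strand-skewed window with listed cytosines on both strands, 1 panel per library, coloured by the place of the window in its block, with a line of equal depth. Most points lie under the line (38 of 40 windows in WT replicate 1 with at least 5 listed cytosines on each strand), and the point above 1000 reads on both axes is the left border on chromosome 7.

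Among listed cytosines, those of the crowded strand also had the higher level in most of the tested windows in the ΔlaeA libraries. The levels of the 2 strands were compared with edgeR's quasi-likelihood test on methylated and unmethylated reads in the ΔlaeA libraries, and 37 of the 41 windows had at least 5 listed cytosines on each strand in both libraries. With 2 libraries this fit has very few residual degrees of freedom per window, so its p-values lean on dispersion estimated over all windows. At an adjusted p below 0.05, 24 of the 37 were called, 22 with the crowded strand higher and 2 with it lower, against 14.6% called over all 10385 windows tested, 7.24% with the plus strand higher and 7.34% with it lower. Among block borders outside the skewed set, 229 of 577, or 39.7%, were called, and among the skewed border windows 18 of 24. The median difference of crowded minus other strand was 5.26 percentage points over the 37 windows. An entry needed at least 2 methylated reads, so cytosines with few reads were listed only at higher levels. The crowded strand was mostly the shallower one, and the part of this limit in the differences was not tested. Among all windows, of 1498 called windows with at least 30 listed cytosines in both WT lists, the strand that was crowded in ΔlaeA was higher in 1314 and lower in 184, so the direction was not particular to the skewed windows.

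The largest differences were in border windows and in the chromosome 1 stretch. In chr1:10822001-10823000 the plus and minus strands stood at 16.5% and 29.6% in ΔlaeA replicate 1 and at 15.4% and 38.7% in ΔlaeA replicate 2, with the minus strand crowded (adjusted p = 6.7e-17). In chr5:2129001-2130000, with the plus strand crowded, plus and minus stood at 32.5% and 18.8% and at 35.3% and 18.0% (adjusted p = 1.6e-10). In chr1:3600001-3601000 the plus strand had 27.0% and 28.1% and the minus strand 11.3% and 12.96% (adjusted p = 1.2e-17). Its listed cytosines had a median of 9 and 11 reads on the crowded plus strand and of 45 and 36 on the minus strand. In each of these windows both replicates gave the same direction, and the strands did not overlap. The differences of plus minus minus level were -16.9, -11.8, -8.73 and -6.73 percentage points in the minus-crowded windows chr1:6765001-6766000, chr6:1871001-1872000, chr2:2916001-2917000 and chr2:5409001-5410000, and 14.2, 12.9 and 9.90 in the plus-crowded windows chr2:4217001-4218000, chr1:3591001-3592000 and chr1:3533001-3534000. With a minimum of 10 reads per cytosine, the difference shrank from 12.9 to 6.97 in chr1:3591001-3592000 and from 15.4 to 11.9 in chr1:3600001-3601000, both still called. In chr2:5409001-5410000 it shrank to -4.19 and the call was lost. The differences of the other windows named here did not change.

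The 2 called windows in which the crowded minus strand was lower were chr1:10151001-10152000, at plus levels of 16.9% and 17.8% against minus levels of 13.96% and 13.8% (adjusted p = 0.0161), and chr7:607001-608000, at 8.71% and 8.43% against 7.29% and 7.28% (adjusted p = 0.0490). In a comparison restricted to cytosines with 30 to 60 reads, added after the strands had been seen to differ in depth, 13 of the skewed windows could be tested and 4 were called, all with the crowded strand higher, against 1.28% of all windows tested. Of the windows named above for the largest strand differences, only 2 could be tested there, and both kept the call.

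The methylation level of the skewed windows was compared between ΔlaeA and WT over the cytosines listed in all 4 libraries. Of the 41 windows 35 had at least 10 such cytosines, the other 6 were not tested, and 5 of the 35 were called at an adjusted p below 0.05, all with a lower level in ΔlaeA and all at block borders. Over all 10187 windows tested 4.59% were called, 3.53% with a lower and 1.06% with a higher level. Among all border windows tested, 95 of 601, or 15.8%, were called lower in ΔlaeA and 9 higher, beside 5 of the 25 tested border windows in the skewed set. In the interior of blocks 2.59% of the windows were called lower. The difference of ΔlaeA minus WT was below 0 in 27 of the 35 skewed windows, or 77.1%, with a median of -1.93 percentage points. It was below 0 in 78.0% of all tested border windows, with a median of -1.52, and in 68.6% of the tested windows with at least 30 listed cytosines in both WT lists, with a median of -0.48, so the count of 27 was close to that of borders in general.

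In chr5:132001-133000 the level was 33.2% and 33.6% in WT and 23.5% and 22.5% in ΔlaeA, and it fell by 10.4 percentage points (adjusted p = 0.000549). In chr4:1394001-1395000 it was 31.0% and 30.2% in WT and 22.5% and 21.3% in ΔlaeA (adjusted p = 0.000601). Both are right borders, and in both the strains were separated by more than the spread between the replicates. In chr4:1271001-1272000 the level was 18.0% and 21.2% in WT and 13.6% and 13.3% in ΔlaeA (adjusted p = 0.00484). In the left border chr1:5059001-5060000 it was 32.3% and 34.4% in WT and 28.7% and 23.5% in ΔlaeA (adjusted p = 0.0145). The fifth window was the left border chr5:88001-89000, at 17.3% and 16.7% in WT and 10.2% and 12.1% in ΔlaeA (adjusted p = 0.0344). Both ΔlaeA libraries lay below both WT libraries in all 5 windows, as they did in 36.6% of all windows tested. Without WT replicate 2 the count fell from 5 to 2, and the windows on chromosomes 4 (chr4:1394001-1395000) and 5 (chr5:132001-133000) were the ones called. The call of chr1:5059001-5060000 was also lost without WT replicate 1 and without ΔlaeA replicate 2, and that of chr5:88001-89000 without WT replicate 1 and without ΔlaeA replicate 1.

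**Figure D5:**
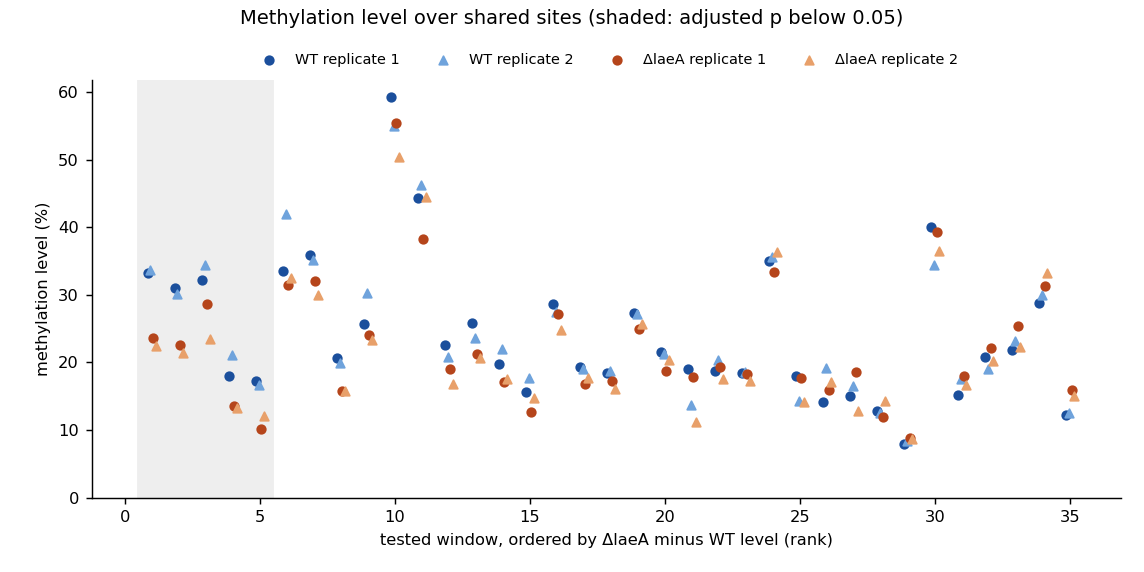
Methylation level (y axis, percent of reads methylated over cytosines listed in all 4 libraries) of the 35 tested strand-skewed windows (x axis, rank by ΔlaeA minus WT), 1 point per library, with the 5 windows called at an adjusted p below 0.05 shaded. In the shaded windows both ΔlaeA points lie under both WT points, and over all 35 windows the mean was lower in ΔlaeA in 27.

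Pooled over all 41 windows and all their listed cytosines, WT had a level of 15.2% ± 0.265 (SD, n = 2) and ΔlaeA had 14.7% ± 0.628 (SD, n = 2). The difference of -0.526 percentage points was within the spread of the replicates (exact two-sided permutation test, p = 0.667, where 2 against 2 libraries cannot go below 0.33). The pooled level weights windows by their reads, and chr7:607001-608000 alone held 34.1% to 39.99% of them. Without it the level was 19.3% ± 0.190 (SD, n = 2) in the 40 remaining windows of WT and 18.9% ± 0.389 (SD, n = 2) in those of ΔlaeA, a difference of -0.408 percentage points.

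The number of listed cytosines per window was also set side by side for the strains. The WT numbers had entered the choice of the windows through the minimum of 30, which favours windows with high WT numbers, so these values are a description. All 41 windows were part of the edgeR quasi-likelihood fit on listed cytosines, which called 1.63% of the 10509 windows tested, 0.98% as lower in ΔlaeA and 0.647% as higher, and 3 skewed windows fell below its threshold, all with fewer cytosines in ΔlaeA. In chr6:1033001-1034000, a right border, 37 and 31 cytosines were listed in WT and 9 and 1 in ΔlaeA. In chr2:5409001-5410000 the numbers were 80 and 71 in WT and 39 and 34 in ΔlaeA. In chr1:8766001-8767000, a window with almost no listed cytosine on its low-coordinate side and 5 to 15 on the other, they were 57 and 62 in WT and 19 and 34 in ΔlaeA. None of the 3 was called with DESeq2 or without a minimum number of cytosines per window, and each lost its call when at least 1 of the 4 libraries was left out. The cytosines listed in chr1:8766001-8767000 were on the plus strand in 52 and 50 cases in WT, which chose the window, and in 11 and 14 in ΔlaeA, with 5 and 12, then 8 and 20, on the minus strand.

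The strand-skewed windows lay closer to genes than most methylated windows, as borders in general did. Of the 41 windows 16, or 39.0%, overlapped an annotated gene, against 6.08% of all 10246 windows and 32.9% of the 605 border windows. The median distance to the nearest gene was 742 bp for the skewed windows, 7554 bp over all windows and 336 bp for the border windows, and none of the 11 interior skewed windows lay within 1000 bp of a gene. The nearest gene to the chromosome 1 run was MYCTH_2295925, at 31447 bp from chr1:3592001-3593000. The longest overlaps were with MYCTH_2305381 at 805 bp, MYCTH_2308513 at 721 bp, MYCTH_2314668 at 640 bp, MYCTH_2138981 at 576 bp and MYCTH_96309 at 569 bp, followed by MYCTH_89251, MYCTH_2295917, MYCTH_2310757, MYCTH_54374, MYCTH_2298894, MYCTH_2310406 and MYCTH_2308330 at 549 to 237 bp. The gene-bearing parts were nearly free of listed cytosines: in 11 of these 12 genes the overlaps held 0 to 3 in each library, and in MYCTH_2138981 they held 3 and 8 in WT and 5 and 6 in ΔlaeA. Denser overlaps among the 17 were MYCTH_41181 in chr1:2485001-2486000, whose overlap of 180 bp held 32 and 33 listed cytosines in WT and 48 and 39 in ΔlaeA, and MYCTH_38236 in chr1:10911001-10912000, whose 104 bp held 21 and 21 in WT and 26 and 21 in ΔlaeA. The gene IDs carry no product names here. None of the 11 genes looked up for their role in the study, namely laeA and laeB, the regulators xlnR, clr-2, clr-1, cre-1, grf-3, grf-2 and grf-1, and the enzyme genes fbp and pck, lay within 1000 bp of a strand-skewed window, and the nearest of them was laeB at 52085 bp.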

How the data were processed

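Genomic DNA of mycelium from the 4 libraries, 2 per strain, had been mixed with a little lambda phage DNA, sonicated, treated with bisulfite and sequenced with paired ends. The authors deposited 1 list of cytosines per library, with the counts of methylated and unmethylated reads, the level as a fraction of methylated reads, and a p-value and adjusted p-value for each call. Per the submitters' processing notes, Bismark 0.16.3 and FastQC 0.11.5 were used; the caller, its settings and filters are not given in the sources used here. The lists hold called cytosines only: every entry had at least 5 reads, at least 2 methylated reads, a level of at least 0.05 and an adjusted p of at most 0.01. A strand share is therefore a share of calls, and a cytosine missing from a list may be unmethylated or shallow. No level of an unlisted cytosine, and no genome sequence, was used, so the number of cytosines available on each strand is unknown. A table with the authors' own comparison of the strains was not used.

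The members, the lists and the tests were chosen with earlier results of these data known. Listed cytosines were counted in windows of 1000 bp. Genes came from the RefSeq annotation of ASM22609v1, to which the chromosome records named in the lists belong. Levels (at least 10 cytosines listed in all 4 libraries and 10 methylated reads per window), listed cytosines (a mean of at least 10 per window, TMM factors) and strands (at least 5 listed cytosines on each strand in both ΔlaeA libraries) were tested with edgeR's quasi-likelihood test across all windows, with Benjamini-Hochberg adjustment and a threshold of 0.05. The tests had been tried on simulated data. Windows were named by a rule: the 5 highest and the 5 lowest WT plus shares, the longest runs of adjacent windows, and up to 5 called windows per direction and test; genes by an overlap of at least 100 bp, up to 12, and as nearest gene. Exceptions to a pattern were named after their values had been seen. Intervals are Wilson 95% intervals, the limit for a count of 0 is 3 counts over the total, and both cover counting error only. R 4.3.3, edgeR 4.0.16, DESeq2 1.42.0, Python 3.11.15, pandas 2.3.3, numpy 2.4.6 and scipy 1.17.1 were used. Replicate numbers did not pair the libraries by the labels, and the fit with a replicate block was run as an alternative, beside other thresholds, depth minimums, window offsets, tools and leaving out each library.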

Additional observations from a re-analysis of the deposited data

How the results depend on the processing

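The number of strand-skewed windows depended on the limits of the choice. It was 168 with plus shares of 65% and 35%, 14 with 75% and 25%, and 25 with at least 50 listed cytosines, and 87 to 91 when a single WT list made the choice. It was 54, 43, 41 and 33 with at least 20 listed cytosines, with windows shifted by 500 bp, with entries of at least 10 reads and with entries of at least 3 methylated reads. The same rule on the ΔlaeA lists, added after the data had been seen, gave 34 windows, of which 18 were shared, 43.9% of the 41 and 52.9% of the 34. For the level in ΔlaeA against WT, Fisher's exact test, run on reads summed over replicates and so blind to their spread, called 3638 windows and 18 skewed ones, and leaving out each library gave 130 to 477 calls over all windows, against 468, and 2 to 5 skewed ones. A library offset left 430 calls, 241 lower and 189 higher, against 360 and 108, and the 5 skewed windows remained lower. For listed cytosines, DESeq2 called 67 windows and 0 skewed ones, against 171 and 3, and the fit without a minimum called 0 and 0. At an unadjusted p below 0.05 there were 602 windows in the edgeR fit, 261 with DESeq2 and 717 without the minimum. Leaving out each library gave 101 to 123 calls, 2 of them skewed windows each time, and the strain then left with 1 library is assumed to vary like the other. For the strands, all 4 libraries called 3147 windows against 1514 and 26 skewed ones against 24. A minimum of 10 reads per cytosine called 1586 and 21, and cytosines of 30 to 60 reads called 111 and 4. The strand fit without a ΔlaeA library leaves no residual degrees of freedom and was not planned. Same-numbered libraries did not deviate together (correlation of 0.00178 over 10187 windows), so the numbers are not shown to pair them. With the replicate block, 478 windows were called for the level and 164 for listed cytosines, with 5 and 4 skewed ones. Of 101 alternatives for single named windows 80 kept the call, 21 lost it and 0 reversed. Strand shares of single windows were not tested between the strains.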
